A study of Rattus norvegicus with 30 samples.

Results

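The testes of 15 juvenile rats that received corn oil and no test chemical were examined. They are all the vehicle control arrays of a study of 30 arrays, and every probe set that is not a manufacturer's control was read in each, 31042 of 31099. The groups were chosen by treatment alone, so no measured value entered the choice. The questions were which genes gave the highest signal in this tissue, which cell types those genes mark, and which genes differed between times and between animals.

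All animals were Fischer rats at postnatal day 28, and each received a single oral gavage. Corn oil alone went to 15 animals, 3 killed with CO2 at each of 1, 2, 3, 6 and 12 h after gavage. Another 15 animals with the same times received mono-(2-ethylhexyl) phthalate (MEHP), a phthalate metabolite toxic to the testis, at 1 g/kg in corn oil. These MEHP animals share no array with the corn oil animals and are used here only as a separate set in which the same measure can be read again. Their values can also carry the effect of MEHP and its change with time. No untouched animals are among the samples, so a corn oil animal is a gavaged and handled animal. The labels of the corn oil animals carry the same dose entry as those of the treated animals, although their treatment is given as corn oil. The gavage volume of corn oil animals ran from 0.178 to 0.305 ml, and the labels give neither body weight nor how the volume was set. Animal 7, a 2 h corn oil animal, is numbered apart from all the other animals, whose numbers lie between 31 and 62. Its origin was not settled. Total RNA of the whole testis was biotin labelled and hybridised to Affymetrix Rat230_2 arrays, 1 array per animal, so differences between animals and differences between arrays cannot be told apart.

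In a rat testis of this age the first wave of sperm formation is still running. Spermatogonia divide and enter meiosis as spermatocytes, these yield round spermatids, which build an acrosome, and the spermatids then elongate, pack their DNA with transition proteins and protamines and build a tail. Sertoli cells nurse the germ cells inside the tubules and seal them off with tight junctions, peritubular myoid cells wrap the tubules, and Leydig cells between the tubules make androgen. Because the stages appear in order, the signal of late stage genes in a juvenile testis depends on how far the first wave has come.

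The 2% trimmed mean signal was 500.1 or 500.2 on every array, so signals compare shares of the array total and not amounts of RNA per testis. The median signal of an array ran from 118.0 (animal 35, 6 h) to 165.4 (animal 48, 2 h) with a median of 139.7. RNA integrity numbers, a score of RNA breakdown in which 10 is intact, were lowest at 2 h (8.27 ± 0.06, SD, n = 3), against means from 8.90 to 9.70 at the other times; the label of animal 35 gives none. The 2 h MEHP animals also had low numbers (8.43 ± 0.06, SD, n = 3). Across the array, animal 48 stood apart: its median correlation with the other 14 arrays was 0.934, and its lowest was 0.889, with animal 52.

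The bacterial spike controls, RNA of known origin added to every sample before hybridisation, differed by time. For 1, 2, 3, 6 and 12 h their mean log2 signals were 11.04 ± 0.06, 11.78 ± 0.49, 11.72 ± 0.04, 11.09 ± 0.25 and 11.69 ± 0.16 (SD, n = 3 each). The 1 h and 6 h arrays and animal 7 at 2 h lay between 10.85 and 11.35, below all the other arrays, which lay between 11.56 and 12.18. The bioB spike was lowest in animal 35, at 394.9, and highest in animal 48, at 1303.6, a ratio of 3.30. Of the 57 control probe sets, 16 differed between times, 12 were lower at 1 h and 14 were lower at 6 h (limma, Benjamini-Hochberg adjusted p below the threshold over these 57). Time therefore moves together with a measure of array processing, and counts with the spike signal as a covariate are given beside the results it touches.

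**Figure D1:**
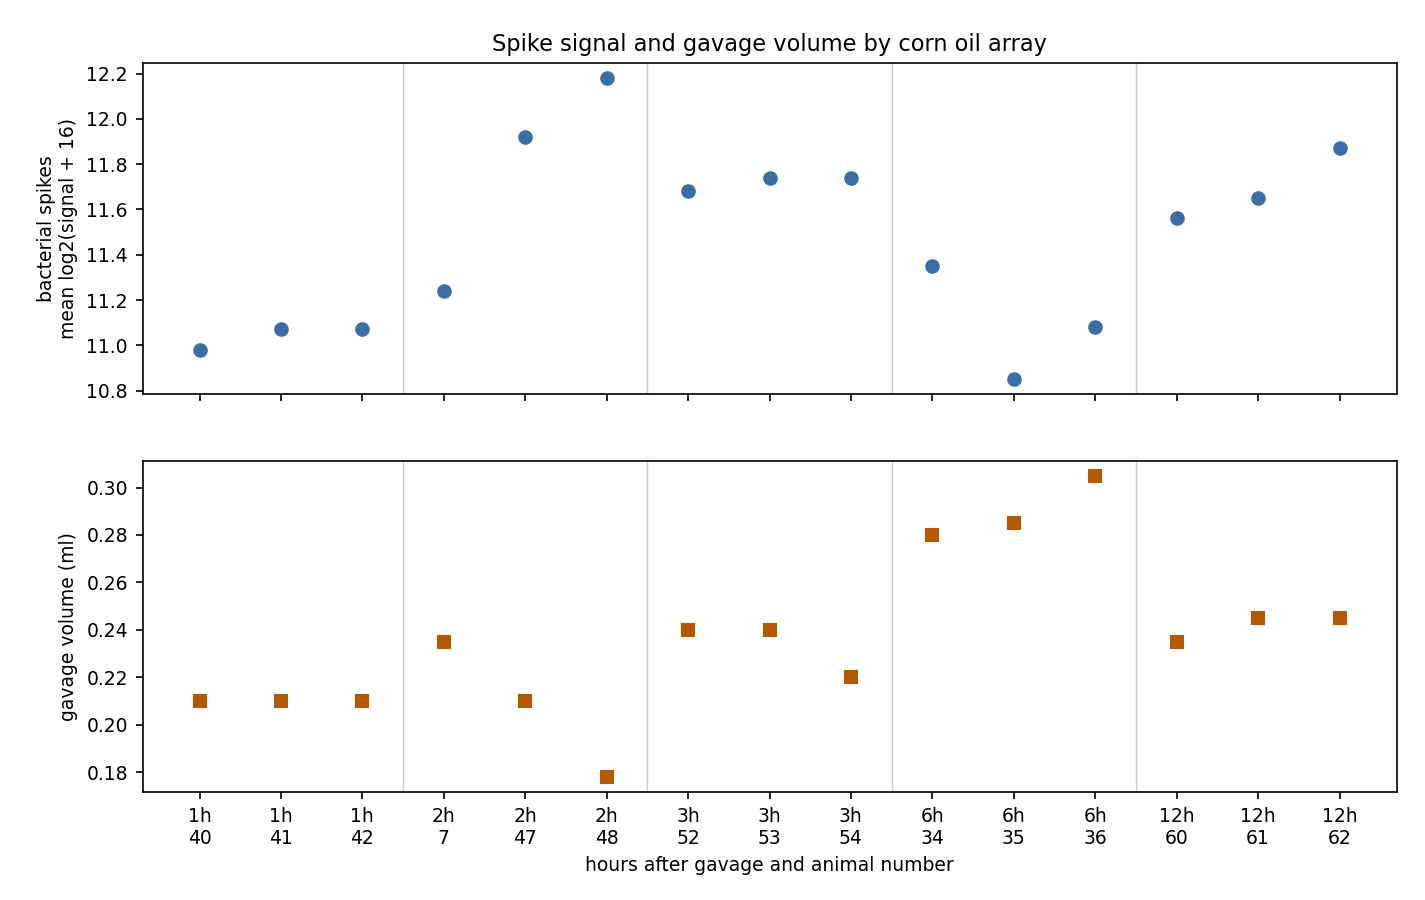
Mean log2(signal + 16) of the bacterial spike probe sets (top) and gavage volume in ml (bottom) for each of the 15 corn oil arrays, ordered by time and animal number. Spike signals at 1 h lie between 10.98 and 11.07, and animal 48 at 2 h has both the highest spike signal (12.18) and the smallest volume (0.178 ml).

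The brightest genes of the day 28 testis were those of respiration, translation and germ cells. Each of the 14217 genes with an unambiguous probe set was ranked by mean signal over the 15 arrays, taking its brightest probe set. Probe sets differ in affinity, so the ranks are of signal and not of transcript amount. The mitochondrially encoded cytochrome c oxidase subunits led: COX2 ran from 27914 to 46144 with a median of 36520 (mean 36262 ± 5448, SD, n = 15), and COX1 had a mean of 30939. Of the 30 brightest genes 10 encode ribosomal proteins, led by Rps29 at 26719 ± 2785. The median gene had a mean signal of 342.9, 144 genes reached 10000, 3891 reached 1000 and 4400 stayed under 100. The 30 brightest genes held between 2.62% and 3.33% of the summed signal of an array, with a median of 3.04%. Ranking by the median kept 28 of these 30, and 29 of them were also among the 30 brightest of the MEHP arrays.

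Germ cell and Sertoli cell genes stood among these housekeeping genes. Fabp9, a fatty acid binding protein of germ cells that is laid down around the sperm nucleus, ranked 5 with 22602 ± 2820 (SD, n = 15). Pebp1, a phospholipid binding regulator of kinase signalling, ranked 6 with 22485 ± 1967. Ppp1cc, the protein phosphatase catalytic subunit with a testis splice form, had 20303 ± 1856. Crisp2, a protein of the acrosome and tail, ran from 8374 to 21737 with a median of 18631; the lowest value was that of animal 48 at 2 h, the library with the lowest spermatocyte and spermatid list levels, described further on. Cmtm2a, ranked 37, ran from 4502 in that same library, animal 48, to 19616 with a median of 18048.

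To read the cell types, the signal of each marker gene was set against 24 genes of other organs, such as albumin of liver, insulin of pancreas and prolactin of pituitary. The brightest of these was Myh6, a heart myosin, with a mean of 244.1. All 24 lay at or below that value, and so did 6287 of the ranked genes. A marker above it is described as above the level of other organs. In a whole tissue, fewer cells of a type and less RNA per cell cannot be told apart.

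Spermatocyte genes were the brightest cell type group. Of 19 measured, 17 lay above the level of other organs, with a median signal of 4422. Sycp3, a lateral element protein of the synaptonemal complex that pairs meiotic chromosomes, ran from 15368 to 22321 with a median of 19488. Ldhc, the germ cell lactate dehydrogenase, ran from 10837 to 21370 with a median of 19072. The values of Sycp3 lay close together, and the low end of Ldhc was a single array. Hspa2, the meiotic heat shock chaperone, had a mean of 13526 ± 1943, Tdrd1, a Tudor protein of the transposon silencing granules, 10662 ± 892, Ybx2, an mRNA storage protein, 10580 ± 1856, and Tex101, a germ cell surface glycoprotein, 9034 ± 546 (SD, n = 15 each). Sycp1, the transverse filament protein of the same complex, gave only 359.5 ± 141.1.

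The promoters of every gene list were searched for a short sequence, with no test of its share. The search was planned for clock and spermatid genes, not for this group. The letters CACGTG, the core E-box, which reads the same on both strands, were sought in 300 bases around the start of each gene, 250 before and 50 after, in RefSeq's rat promoters (build GRCr8). They were present in 9 of the 25 spermatocyte genes of the list with an entry (36.0%), against 6.65% of all 27457 promoters and 8.92% of the promoters of genes with a probe set here. This was the highest share of all lists searched, so it is picked from many. Other lists were also above the background, with 4 of 17 circadian clock genes (23.5%) and 6 of 26 immediate early genes (23.1%). The 9 spermatocyte genes are Ddx4, Hormad1, Mael, Meig1, Nxf2, Pgk2, Piwil1, Sycp3 and Tdrd1. Only 15 of the 25 genes have a probe set, 3 of the 9 among them, Meig1, Sycp3 and Tdrd1. A match describes the letters and is no evidence of binding. The promoters of Sycp3 (chr7:24761226-24761525, plus strand) and Tdrd1 (chr1:265880775-265881074, plus strand), which are among the brightest of the group, are shown 5′ to 3′ with the E-box in capitals.
Sycp3: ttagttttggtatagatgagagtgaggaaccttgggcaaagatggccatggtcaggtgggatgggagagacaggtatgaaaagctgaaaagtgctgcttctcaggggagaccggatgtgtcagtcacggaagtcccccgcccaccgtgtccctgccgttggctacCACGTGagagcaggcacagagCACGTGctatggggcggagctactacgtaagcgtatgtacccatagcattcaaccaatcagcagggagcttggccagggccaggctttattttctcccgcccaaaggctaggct
Tdrd1: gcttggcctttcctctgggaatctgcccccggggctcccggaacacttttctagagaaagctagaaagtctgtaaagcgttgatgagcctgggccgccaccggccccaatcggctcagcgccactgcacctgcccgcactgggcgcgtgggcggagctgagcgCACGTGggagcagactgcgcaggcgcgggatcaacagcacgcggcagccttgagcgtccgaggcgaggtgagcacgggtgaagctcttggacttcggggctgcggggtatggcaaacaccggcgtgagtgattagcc

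The list medians were lower for the later stages. Of 18 round spermatid and acrosome genes measured, 11 lay above the level of other organs, with a median signal of 735.4. Tcp11, a spermatid protein, ran from 852.1 to 6138 with a median of 4292; Crem, whose spermatid form drives postmeiotic transcription, had a mean of 2428 ± 301, and Spmap2 had 2426 ± 775 (SD, n = 15 each). Of 16 elongating spermatid genes measured, 5 lay above it, with a median of 103.5. Odf2, an outer dense fibre and centriole protein that other cells also make, was the brightest of these at 9497 ± 2165, followed by the tail scaffold protein Akap3 at 803.1 ± 243.5 and the phosphoglycerate mutase Pgam2 at 596.0 ± 244.5.

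The DNA packing genes of the last stage were at the level of organs that do not make them. The transition protein gene Tnp1 ran from 2.26 to 94.1 with a median of 24.2, the protamine gene Prm1 from 2.03 to 34.9 with a median of 9.09, and Prm2 from 8.67 to 97.7 with a median of 31.5. Akap4, the main fibrous sheath protein of the tail, had a median of 9.83, but reached 221.4 in 1 array. All of these values are below the mean of Myh6. The cyclic AMP response element TGACGTCA, the site through which Crem acts and which also reads the same on both strands, was in the promoter of Tnp1 among 21 elongating spermatid genes with an entry, in Izumo1 and Lyzl6 among 29 round spermatid genes, and in 1.91% of all promoters. The Tnp1 promoter (GRCr8, chr9:82044229-82044528, minus strand) is shown with the element in capitals, as a gene of this class that gave no signal above other organs.
Tnp1: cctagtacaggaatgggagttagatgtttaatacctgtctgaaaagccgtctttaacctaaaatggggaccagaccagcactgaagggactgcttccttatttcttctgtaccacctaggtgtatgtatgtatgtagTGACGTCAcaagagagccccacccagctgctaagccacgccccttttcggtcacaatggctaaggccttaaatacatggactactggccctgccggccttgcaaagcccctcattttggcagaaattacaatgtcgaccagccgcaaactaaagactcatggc

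Spermatogonial genes had a lower signal than spermatocyte genes, with a median of 223.6 over 12 measured, 6 of them above the level of other organs. Uchl1, a ubiquitin hydrolase of spermatogonia that neurons also make, had 3465 ± 311 and Id4, a regulator of spermatogonial stem cells, 1909 ± 583 (SD, n = 15 each). The stem cell receptor gene Gfra1 had 119.0 ± 25.4.

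Sertoli cell genes were bright. Of 24 measured, 18 lay above the level of other organs, with a median of 1782. Clu, the secreted chaperone clusterin, ran from 13662 to 26483 with a median of 18114. The tight junction protein gene Cldn11 ran from 10132 to 16886 with a median of 11763. The top of both ranges was the same animal, 48 at 2 h. Aard had a mean of 14614 ± 2067, Tsx of 9870 ± 1450, the androgen binding protein gene Shbg of 6269 ± 836 and the cystatin Cst12 of 5516 ± 486 (SD, n = 15 each). Markers of immature Sertoli cells were low: Amh, anti-Müllerian hormone, had 288.6 ± 73.5 and the keratin Krt18 9.08 ± 5.61. Rhox5, an androgen driven homeobox gene, had 59.2 ± 17.7.

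Of the interstitial and wall cells, Leydig and myoid cells showed clearly and vessels weakly. Of 17 Leydig cell genes 14 lay above the level of other organs, led by the steroid enzymes Hsd3b1 at 6448 ± 1349 and Cyp17a1 at 5300 ± 1430 and by their electron donor Fdx1 at 3242 ± 394 (SD, n = 15 each). Insl3, the insulin-like hormone of Leydig cells, ran from 534.5 to 2414 with a median of 765.2, and Hsd17b3, the enzyme of the last step to testosterone, had only 61.5 ± 25.1. Of 17 peritubular myoid genes 11 lay above it, led by Col3a1, a fibrillar collagen that fibroblasts also make, at 4698 ± 696 and the myosin light chain Myl9 at 3596 ± 391; Acta2, smooth muscle actin, had 935.9 ± 81.2. Of 13 endothelial genes only the vessel claudin Cldn5 did, at 414.3 ± 48.5.

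Blood and neighbouring tissue were also read, since the dissected organ could carry them. Of 19 macrophage genes 4 lay above the level of other organs, led by the mannose receptor Mrc1 at 839.2 ± 116.7, and of 11 genes of other leukocytes 0 did. The red cell gene Hbb was bright and variable, from 6696 to 19581 with a median of 11999, lowest in the 6 h animals and highest in animal 48. The other red cell genes did not share that order: the mean log2 signal of the 4 tested was 8.90 in animal 48, against 8.71 to 9.46 over all 15 with a median of 9.10. Of 8 genes of epididymis and rete testis only Cst8, a cystatin that testis also makes, lay above it, at 633.6 ± 144.3. The defining epididymal genes Defb22, Spag11a and Adam7 had means of 53.0, 42.0 and 18.5.

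**Figure D2:**
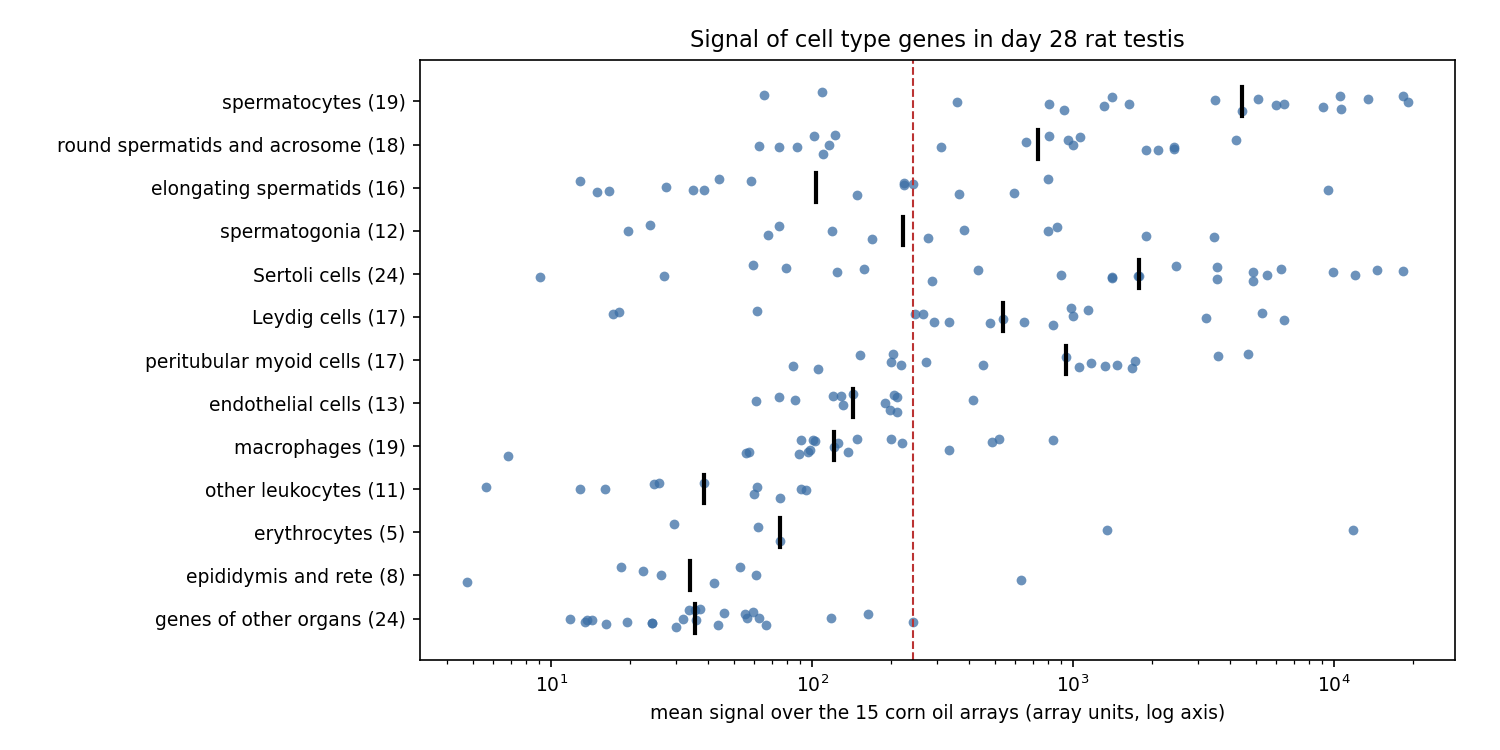
Mean signal over the 15 corn oil arrays (array units, log axis) of each measured marker gene, grouped by cell type with the number of genes in parentheses; black bars are group medians and the dashed line is the brightest gene of other organs, Myh6 at 244.1. Medians fall from 4422 in spermatocytes to 735.4 in round and 103.5 in elongating spermatids.

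Differences between times were sought with limma on log2(signal + 16) over the 20212 probe sets that reached the 40th percentile of their array in at least 3 of the 15 arrays, with p-values adjusted by Benjamini-Hochberg and a threshold of 0.05. Over the 5 times together 0 probe sets were called, while 5521 had an unadjusted p under 0.05, and the smallest adjusted p was 0.0589. This count rested on single animals: without animal 7 (2 h) 4454 probe sets were called, without animal 54 (3 h) 2374, without animal 48 (2 h) 14, and without animal 34 (6 h) 1. With the spike signal as a covariate 3731 were called and with the gavage volume as a covariate 540.

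The genes of smallest p over the 5 times are named for their values. Txnip, a thioredoxin binding regulator of glucose uptake, had signals of 2261, 2199 and 2238 in the 1 h animals and of 2825, 3126 and 3435 in the 2 h animals. The 3 h animals had 3257, 3154 and 2507, the 6 h animals 1874, 1919 and 1604, and the 12 h animals 1961, 2076 and 2039. The 2 and 3 h animals were above all the others and the 6 h animals below all the others, yet its adjusted p over the 5 times was 0.0589. In the comparison of 2 h with the other times, described further on, Txnip was called (0.49 ± 0.08, limma adjusted p 0.0299). Among the MEHP arrays its 2 h mean was the lowest, at 1531 against 2456 at 3 h, with an adjusted p over the 5 times of 0.527. Hsp90ab1, a cytosolic chaperone, had its highest mean at 2 h (8009 ± 1391) and its lowest at 6 h (4714 ± 368), with an adjusted p of 0.103 (SD, n = 3 each). Ccnb1, the mitotic cyclin B1, had its lowest mean at 1 h (1580 ± 119) and its highest at 6 h (2774 ± 254), with the same adjusted p of 0.103.

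Each time was then set against the mean of the other 4. At 1, 3, 6 and 12 h 0 probe sets were called by limma; the numbers with an unadjusted p under 0.05 were 2020, 2201, 4584 and 754. With the spike signal as a covariate 3707 were called at 1 h, 2223 at 3 h and 2 at 12 h. These counts also rested on single animals: without animal 7 the 6 h count was 2568, without animal 48 it was 1037, and without animal 54 the 3 h count was 1573. Smaller counts of 1 to 3 came for 1 h without animal 40, 42 or 48, for 3 h without animal 7 or 61, and for 12 h without animal 41 or 54. By their gavage times plus the hours to kill, animals at 3 and 6 h were killed between 16.25 and 16.57 in decimal hours. This pair thus shares the hour of kill and differs in hours since gavage. It also differs in the hour of gavage (13.37 to 13.57 against 10.25 to 10.42) and in volume (0.22 to 0.24 against 0.28 to 0.305 ml). These 3 differences cannot be told apart. Of this pair 0 were called and 1993 had an unadjusted p under 0.05; without animal 54, 283 were called, without animal 48, 4, and without animal 60 or 61, 1. Of the 57 control probe sets 12 were higher at 3 h than at 6 h.

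The genes of smallest p at 6 h were Pmfbp1, Slc16a7, Akap14, Mmd2 and Txnip, each with an adjusted p of 0.056 (limma). Slc16a7 was higher at 6 h, with a mean of 195.2 against 79.95 at the other times. Mmd2 and Txnip were lower, with log2 differences of -0.43 and -0.50. Akap14, an anchoring protein of cilia and sperm tails, read 114.8, 123.7 and 213.6 at 6 h against 9.90 to 66.5 with a median of 36.7 elsewhere. Pmfbp1, a protein of the sperm head and tail junction, read 273.7, 251.7 and 416.4 against 97.1 to 196.2. The 3 animals at 6 h did not overlap the others in any of these genes. They were also the 3 of largest gavage volume, so time and volume cannot be told apart for them.

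Star, the protein that carries cholesterol into mitochondria for steroid synthesis, gave the smallest p at 3 h and in the pair of 3 and 6 h. Its brighter probe set read 675.5, 907.1 and 463.0 at 6 h, against 101.0 to 429.1 in the other 12 animals. All 3 animals at 6 h were above the rest, by 1.80 ± 0.32 on the log2 scale (difference ± SE), with an adjusted p of 0.056. A second Star probe set read 132.5, 121.4 and 77.0 at 3 h, against 153.1 to 375.0 with a median of 260.2 in the others, lower by a log2 value of -1.14 ± 0.17 (adjusted p 0.148). The probe sets differed in their 3 h value, since the brighter gave -0.47 ± 0.32 there. Among MEHP arrays the 6 h difference of the brighter probe set was -0.97 ± 0.25, of opposite sign, with an adjusted p of 0.933.

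The clock genes and the immediate early genes, which answer to the hour of day and to handling, were followed at every time. Kill times, taken as the gavage time plus the hours to kill, ran from 14.3 to 18.6 in decimal hours. None of the clock genes Dbp, Per1, Per2, Per3, Nr1d1, Nr1d2, Bmal1 and Tef was called in any difference between times; Ciart had no probe set with its symbol alone. Dbp, the clock output factor with the widest daily swing in many tissues, had means of 277.3 ± 20.8, 321.0 ± 49.7, 321.1 ± 9.2, 238.2 ± 44.4 and 250.4 ± 14.5 from 1 to 12 h (SD, n = 3 each), with an adjusted p over the times of 0.159. In the MEHP arrays the adjusted p of Dbp was 0.0248, and the difference between treatments was not tested for it. Per1 stayed between 437.8 and 666.9. On the slope on gavage volume, described further on, 3 of these clock genes were called by limma and the others were not. They were Tef (-0.16 per 0.01 ml, adjusted p 0.00316), Per3 (-0.15, adjusted p 0.0272) and Nr1d2 (-0.07, adjusted p 0.0315). Of 17 clock list genes tested 1 rose and 3 fell, against 11.6% and 12.5% of all probe sets. Of the stress responsive genes, Fos was too dim to be tested (mean 39.1), Egr1 had 293.6 ± 48.6 at 1 h against 181.5 ± 77.0 at 3 h, and the phosphatase gene Dusp1 had 221.3 ± 49.0 at 1 h against 117.6 ± 12.1 at 6 h. Neither Egr1 nor Dusp1 was called at any time, and the adjusted p of Dusp1 over the times was 0.165, against 0.00444 in the MEHP arrays.

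The exception was 2 h. There 1030 probe sets were higher (5.1% of those tested) and 811 lower (4.01%) than the mean of the other times. Among the called probe sets with 1 symbol, those of 501 genes had the 3 animals at 2 h apart from the other 12. Overlap was looked at only among calls of this same contrast, so this count adds no separate support. The share without overlap over all probe sets was not counted. Tbl1x, a subunit of corepressor complexes, read 106.0, 178.0 and 250.6 at 2 h against 7.88 to 95.2 with a median of 41.5 elsewhere, a log2 difference of 1.78 ± 0.42 (adjusted p 0.0341). St6gal1, a sialyltransferase, read 204.4, 224.6 and 269.7 against 87.3 to 174.1 with a median of 119.7, a difference of 0.83 ± 0.15 (adjusted p 0.0299). In both genes animal 48 was the highest and animal 7 the lowest of the 3.

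Genes lower at 2 h showed the mirror order. Bbs7, a subunit of the complex that brings proteins to cilia, read 783.6 in animal 7, 691.0 in animal 47 and 420.7 in animal 48, against 984.8 to 1356 with a median of 1098 elsewhere, a difference of -0.89 ± 0.13 (adjusted p 0.0299). Tuba8, an alpha tubulin, read 190.4, 155.4 and 43.2 in the same order against 228.1 to 475.2, a difference of -1.46 ± 0.28 (adjusted p 0.0299). All 3 animals lay below the others, with animal 48 the lowest. The other genes named by rule were Klf9, Bmpr1a, Mllt3, Adora1, Rnf144a, Rab31, Prickle1, Nid1, Kitlg and Fbxo21 among the higher, with differences from 0.82 to 1.21. For Kitlg, the stem cell factor that Sertoli cells make, this is 1 of 4 probe sets: another was called (1.31, adjusted p 0.0395), while the brightest (0.43, adjusted p 0.107) and the last (0.57, adjusted p 0.141) were not. Among the lower they were Ccdc136, Pik3r6, Muc1, Trim14, Cntnap2, Prkcz, Ank1, Pla2g6, LOC102550354 and Cyp2s1, with differences from -1.15 to -0.80.

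By cell type, 8 of 21 Sertoli genes tested were higher at 2 h and 0 lower (median 0.31), and 5 of 16 macrophage genes were higher and 0 lower (median 0.31). Among round spermatid genes 0 of 18 were higher and 3 lower (median -0.64), and among spermatocyte genes 0 of 19 higher and 3 lower (median -0.22). The median over all probe sets was 0.08. In the MEHP arrays at 2 h the medians were 0.02 for Sertoli, -0.30 for macrophage and -0.19 for round spermatid genes, and 0 probe sets were called. That comparison also carries any change of the MEHP response with time. At 12 h against the other times 2173 of 20405 probe sets were called in the MEHP arrays. The mean log2 signal of the macrophage genes ran from 7.31 to 7.41 in MEHP animals at 2 h and from 7.79 to 8.74 at 12 h. Of the corn oil 2 h calls tested in both sets, 981 of 1832 (53.5%) had the same sign at 2 h in the MEHP arrays, against 59.7% of all probe sets tested in both.

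The 2 h calls depended on a few animals. Without animal 36 or animal 42 there were 0, without animal 48 there were 2, without animal 7 there were 6490 and without animal 54 there were 3830. Without animal 52, 60, 61, 41, 53, 40, 35, 62 or 47 there were 241, 259, 399, 407, 486, 613, 710, 766 and 1222. With the gavage volume, the spike signal or the hexokinase 3′ to 5′ ratio as a covariate there were 0, and with the array median there was 1. Of the 1841 calls, 1723 (93.6%) had the sign opposite to their slope on gavage volume, described next. The share of opposite signs over all probe sets was not counted. The slope leans on the same 2 h arrays, so this count adds no separate support for a link with volume. The 2 h animals also had the lowest RNA integrity, and 6 of 57 control probe sets were higher there; the part of these in the calls was not tested beyond the covariates given.

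The animals of a time differed in gavage volume, and the slope of each probe set on volume was estimated with time as a factor, so that animals were compared within times. The 3 animals at 1 h had the same volume of 0.21 ml and add nothing to the slope, and the 2 h animals, at 0.235, 0.21 and 0.178 ml, hold 70.5% of the variation in volume within times. Of 20212 probe sets 2340 rose with volume (11.6%) and 2533 fell (12.5%), with a median slope of -0.03 in log2 per 0.01 ml. After quantile normalization 2614 rose and 1806 fell. The labels also give an RNA integrity number and a gavage time for each animal, but no body or testis weight. At 2 h, animals 7, 47 and 48 were gavaged at 13, 13.43 and 13.53 in decimal hours. Volume and order of gavage therefore cannot be told apart among these animals. What else rose with volume was not tested.

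Spermatid genes rose together with the volume. Of 18 round spermatid and acrosome genes 14 rose and 0 fell, with a median slope of 0.27 per 0.01 ml. Of 8 elongating spermatid genes tested 7 rose and 0 fell, with a median of 0.29. The other 8 elongating spermatid genes measured, the transition protein and protamine genes among them, were too dim to be tested.

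The values of single genes show the order. Hils1, the histone H1-like protein of spermatids, read 285.1 in animal 7, 80.3 in animal 47 and 40.5 in animal 48 at 2 h, in order of volume. The 1 h animals read 35.5, 54.1 and 65.6 and the 3 h animals 180.2, 106.9 and 46.5. The 6 h animals read 378.3, 383.5 and 991.1 and the 12 h animals 100, 207.5 and 106.8. The 6 h animals, which had the largest volumes (0.28, 0.285 and 0.305 ml), were above all others, and at 3 h animal 54, with the smallest volume of the 3, was the lowest. Its slope within times was 0.47 ± 0.07 per 0.01 ml (slope ± SE, limma adjusted p 0.000709).

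Pgam2 read 731.0, 408.9 and 61.1 in animals 7, 47 and 48, and 754.7, 874.6 and 1076 in animals 34, 35 and 36. Its slope was 0.46 ± 0.07 (adjusted p 0.000658). Odf1, the outer dense fibre protein of the sperm tail, read 608.0, 132.9 and 134.8 at 2 h and 535.6, 624.9 and 1283 at 6 h, against 126.6 to 184.6 at 1 h. In Pgam2 the low value of animal 48 stood alone, while in Odf1 animals 47 and 48 were both at the level of 1 h. Tcp11 read 4405, 3050 and 852.1 at 2 h in the same order of animals, with a slope of 0.33 per 0.01 ml.

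Genes of meiosis did not all move the same way. Of 19 spermatocyte genes 9 rose and 1 fell, with a median of 0.04. The risers were led by Ccna1, the cyclin of late meiotic prophase (0.40), Adam2, a sperm surface protein (0.36), Meig1, a partner in sperm tail assembly (0.34) and Adam3a (0.33), which in textbooks are switched on late in prophase and remain in spermatids. Of early meiotic genes, Sycp3 had -0.06 (adjusted p 0.076) and Sycp2 0.01 (adjusted p 0.605), and neither was called. Apart from Sycp3, the genes of this paragraph were picked after their values were seen. They therefore cannot show a split of the list into early and late genes. The faller was Tex15, a gene needed for meiotic repair, with -0.14 (adjusted p 0.00896). Meig1 read 5691, 3407 and 990.2 in animals 7, 47 and 48, and 3915 to 4816 at 1 h, so animal 48 alone lay below the 1 h range by a wide gap.

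Among Sertoli and spermatogonial genes the calls were all of falls with the volume. Of 21 Sertoli genes 13 fell and 0 rose, with a median of -0.09. Clu read 18126, 21660 and 26483 in animals 7, 47 and 48 and 17004, 15191 and 13662 in animals 34, 35 and 36, again in order of volume at both times, with a slope of -0.09 ± 0.02 per 0.01 ml (adjusted p 0.00128). The slopes of the other called bright members were -0.06 for Aard, -0.09 for Cldn11, -0.06 for Tsx and -0.06 for Shbg. Of 10 spermatogonial genes 4 fell and 0 rose, Uchl1, Crabp1, Dmrt1 and Sall4, with slopes from -0.18 to -0.07.

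The interstitial, wall and blood cell lists were read in the same way. Of 14 Leydig genes 3 rose, Insl3 (0.29), Gramd1b (0.26) and Hsd11b1 (0.13), and 0 fell, with a median of 0.03. Insl3 read 2414, 626.8 and 534.5 in animals 7, 47 and 48, and animal 7 was the highest of all 15. In the MEHP arrays 5 Leydig genes rose and 0 fell, Cyp17a1 (0.42), Insl3 (0.29), Gramd1b (0.22), Akr1c14 (0.21) and Lhcgr (0.16), with a median of 0.11. The 12 h animals hold 44.6% of the variation in volume within times of the MEHP set. At 12 h the mean log2 signal of the Leydig genes was 8.63 in MEHP animal 57 (0.21 ml) and 9.55 in animal 58 (0.265 ml). Volume and degree of response to MEHP cannot be told apart among these animals. Of 17 myoid genes and of 13 endothelial genes 0 rose and 0 fell, with medians of -0.01 and -0.01 and slopes between -0.11 and 0.07. Of 4 red cell genes 1 fell, Hbb (-0.15, adjusted p 0.0183), and 0 rose, with Epb42 at 0.22 (adjusted p 0.25) and Alas2 at 0.06 (adjusted p 0.229) of opposite sign. Of 16 macrophage genes only Mrc1 rose (0.08, adjusted p 0.0215).

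The mean log2 signal of the 18 round spermatid genes was 7.59 in animal 48, 8.38 in animal 47 and 9.14 in animal 7, and 9.43, 9.46 and 9.89 in animals 34, 35 and 36. At 1 h it was 8.23, 8.31 and 8.44. The 6 h animals were above all the others and animal 48 below all the others. In the 2 h animals 14 of the 18 genes were ordered by volume. The mean of the 21 Sertoli genes was highest in animal 48 at 11.42 and lowest in animal 36 at 10.68, and 18 of the 21 were highest in animal 48 among the 2 h animals.

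**Figure D3:**
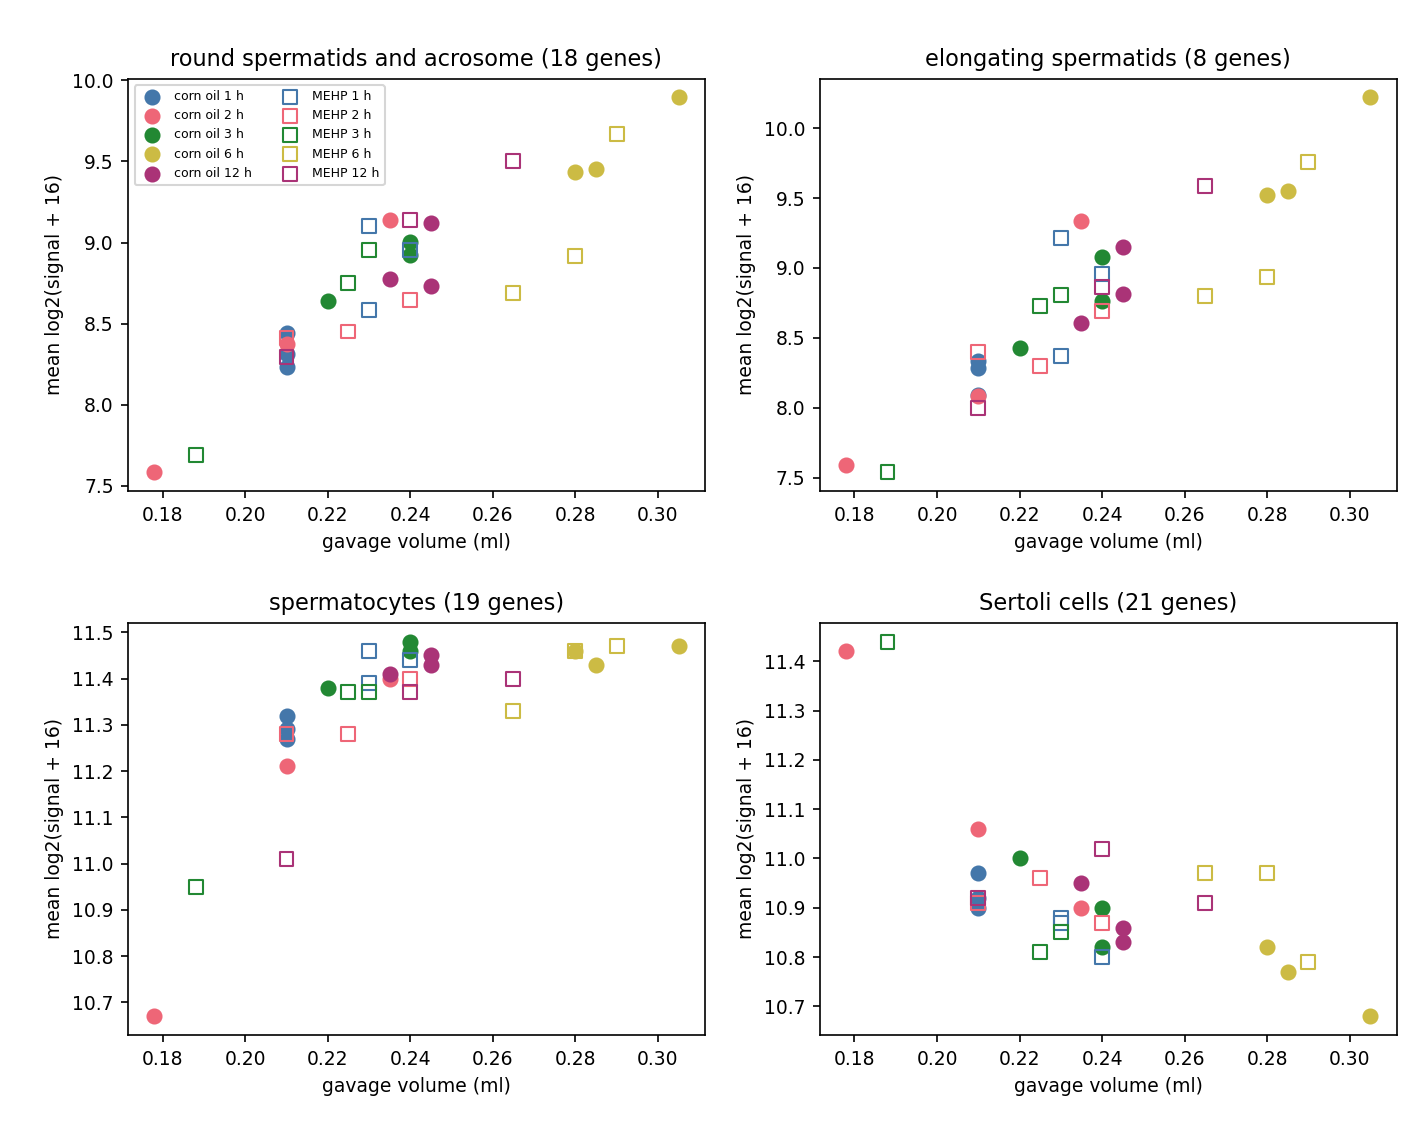
Mean log2(signal + 16) of the tested genes of 4 cell type lists in each animal against its gavage volume in ml, with corn oil animals as filled circles, MEHP animals as open squares and colour for time. The smallest volumes, animal 48 (0.178 ml, corn oil) and animal 49 (0.188 ml, MEHP), have round spermatid levels of 7.59 and 7.69 and Sertoli levels of 11.42 and 11.44, the extremes of their panels.

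The same slope was estimated among the 15 MEHP animals, which share no array with these. There 2332 probe sets rose with volume (11.4%) and 1831 fell (8.97%). Of the corn oil calls tested there, 4452 of 4838 (92.02%) had the same sign, against 75.6% of all probe sets tested in both. Both sets called 2219 in the same direction, 45.5% of the corn oil calls and 53.3% of the MEHP calls. Of the round spermatid genes 15 of 18 rose there with a median of 0.22, of the elongating spermatid genes 7 of 8 with a median of 0.29, and of the Sertoli genes 7 of 21 fell and 1 rose with a median of -0.06. The difference in slope between the treatments was tested over 21196 probe sets, of which 0 were called by limma, with 2316 at an unadjusted p under 0.05 and a smallest adjusted p of 0.176. Without MEHP animal 57, 49 or 58 the MEHP count of 4163 was 2013, 2117 and 2561. The 12 h animals, 57 and 58 among them, hold 44.6% of the variation in volume within times of the MEHP set. Among them volume and degree of response to MEHP cannot be told apart.

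**Figure D4:**
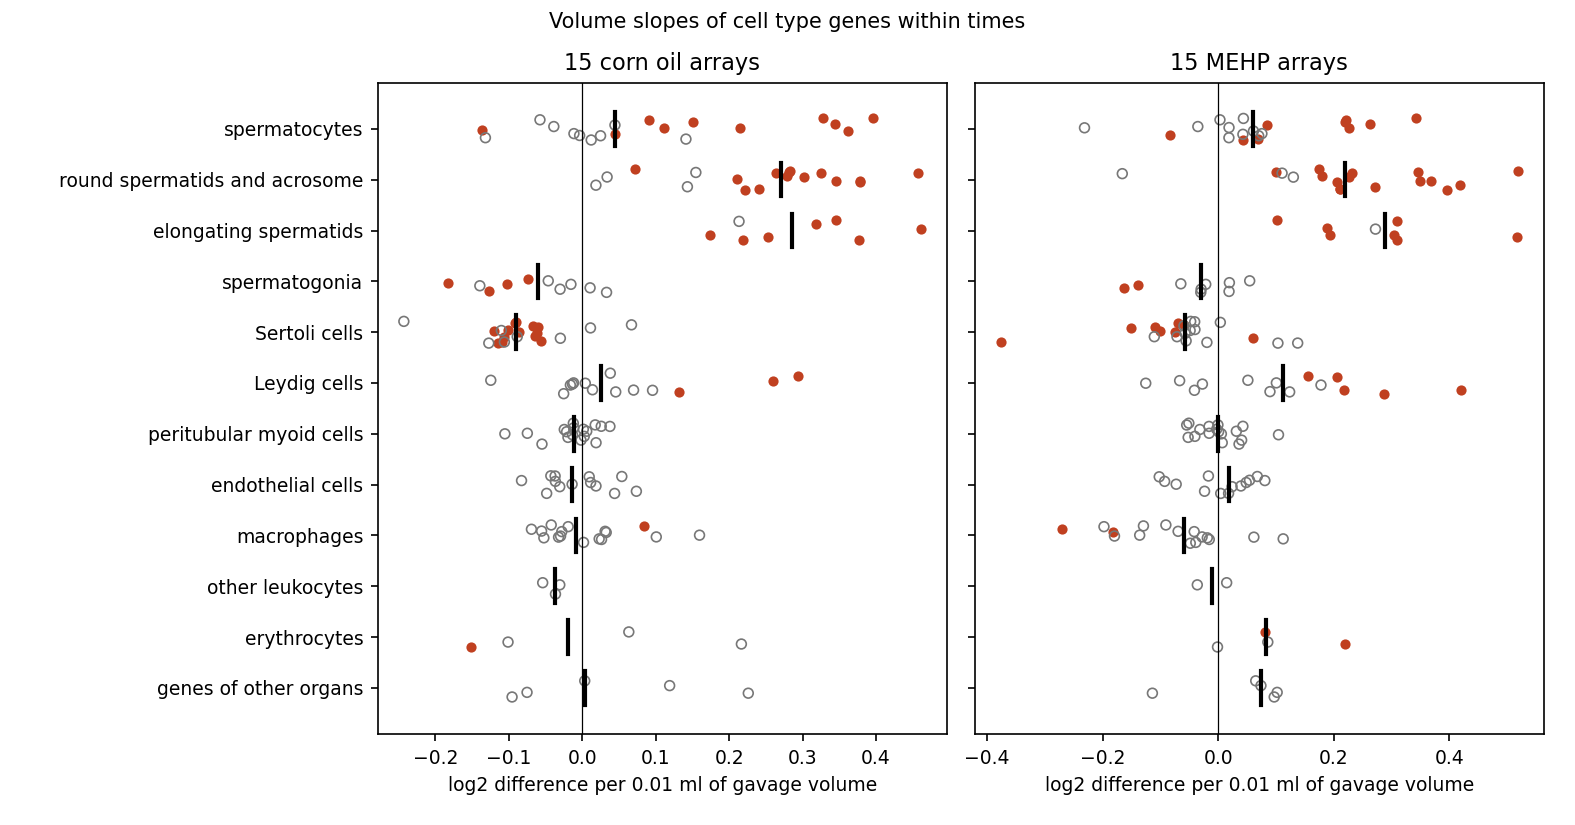
Slope of log2(signal + 16) per 0.01 ml of gavage volume within times for each tested marker gene, in corn oil arrays (left) and MEHP arrays (right); filled red points passed an adjusted p of 0.05, open points did not, and black bars are list medians. Round and elongating spermatid genes have medians of 0.27 and 0.29 in corn oil and of 0.22 and 0.29 in MEHP arrays.

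The genes of steepest slope in each direction were named by rule. After Hils1 and Pgam2 the risers were the carboxylesterase Ces1d (0.55), the cyclic AMP phosphodiesterase Pde7b (0.52), Spata20 (0.51), the sperm tail microtubule protein Cimap1a (0.48), the sperm actin capping subunit Capza3 (0.46), C2h1orf56 (0.45), Pou2af3 (0.44) and the chemokine Ccl17 (0.44). All of these rose in the MEHP arrays too, apart from Ccl17, whose slope there was -0.02 (adjusted p 0.836). The fallers were Fbxl19 (-0.65), Slc16a13 (-0.47), Anp32a (-0.46), Pafah1b1 (-0.45), Msi2 (-0.44), Chtf8 (-0.42), Gnas (-0.41), Rpl39 (-0.40), Sv2b (-0.40) and Prodh (-0.40). The 9 tested in the MEHP arrays all had negative slopes there, and Anp32a, a nuclear phosphoprotein, passed (-0.26, adjusted p 0.0389). Pafah1b1 (-0.37), Msi2 (-0.37), Sv2b (-0.29), Gnas (-0.27), Fbxl19 (-0.24) and Chtf8 (-0.13) had adjusted p-values there from 0.0565 to 0.182. Rpl39 and Prodh had slopes there of -0.01 (adjusted p 0.864 and 0.937), and Slc16a13 was not tested there. Rpl39, a ribosomal protein, read 62.0, 247.2 and 537.9 in animals 7, 47 and 48 and 168.3 to 335.1 in the other 12, so animals 7 and 48 lay on either side of all others. The slopes of Pafah1b1, Msi2, Gnas and Sv2b turned positive with the array median as a covariate.

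The volume calls rested on the 2 h animals: without animal 48 there was 1, without animal 7 there were 535 and without all 3 there were 0, while with the spike signal or the array median as a covariate there were 3 and 0. The median slopes stayed positive for both spermatid lists (0.14 to 0.38) and negative for the Sertoli list (-0.09 to -0.05) in each of these settings and after quantile normalization. Without the 2 h animals, 3404 of 4104 MEHP calls (82.9%) had the same sign in the corn oil arrays, against 67.5% of all 19825 tested in both. Animal 48 also had the highest spike signal, the highest array median and the lowest RNA integrity number (8.2), and the part of these in the slopes was not tested beyond the covariates given. Animal 49, the MEHP animal of smallest volume, likewise had the highest array median of its 15 arrays (153.6), with a spike signal of 11.55 and an integrity number of 9.5.

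Spread between animals was measured as the residual SD of log2(signal + 16) after removing the mean of each time, with 10 degrees of freedom. Its median over all probe sets tested was 0.21. Among the 8365 genes with a mean signal of at least 200 the median was 0.16, and the 5th and 95th percentiles were 0.08 and 0.38. In 5537 of these genes (66.2%) the residual SD was larger than the SD of the 5 time means. Across these genes the residual SD correlated between corn oil and MEHP arrays with r = 0.755, a correlation across genes, which are not independent replicates. By list, the median residual SD was 0.57 for elongating spermatid, 0.53 for red cell, 0.47 for round spermatid and 0.30 for Leydig genes. It was 0.21 for spermatocyte and for Sertoli genes, 0.19 for myoid genes and 0.14 for heat shock chaperones.

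The steadiest gene was Skp1, a subunit of ubiquitin ligases, which ran from 10572 to 12474 with a median of 11508 and had a residual SD of 0.026. Next came Arl6ip1 (0.033), the ribosomal protein Rpl11 (0.038), the splicing factor Usp39 (0.039) and Trappc13 (0.039), followed by Ddb1, Dazap2, the respiratory subunit Cox4i1, Pdia6 and Ppa1, all up to 0.041. Of these 10, 5 were among the steadiest 5% in the MEHP arrays too.

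The 20 most variable genes had residual SDs from 1.47 (Strbp) to 0.80 (Aak1), and the 21st, Cpd, had 0.80. In 19 of them the 3 lowest of the 15 arrays were the same, animals 52 and 53 at 3 h and animal 35 at 6 h. Strbp, an RNA binding protein of spermatids, read 61.4 in animal 52, 76.8 in animal 53 and 230.9 in animal 35, against 1111 to 2634 with a median of 2052 in the other 12. Cirbp, the cold inducible RNA binding protein, read 33.1, 40.7 and 229.1 against 495.3 to 1946 with a median of 1324. Rbm5, a splicing regulator, read 523.6, 707.1 and 1743 against 3989 to 7568 with a median of 5929. In each of these genes the 3 arrays lay below all others without overlap. Within the 3 h group animal 54 was the array farthest from the time mean in all 19, although its values lay among those of the other times.

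The other members of the 19 were Prkaa2, Sp1, Srrm2, Anp32a, Ccnd2, Sv2b, Dhx36, Ppp4c, Bmpr2, Zdhhc20, Mtcl2, Ubn2, Foxo1, LOC100912031, Dmxl1 and Aak1. Among them are the splicing coactivator Srrm2, the transcription factors Sp1 and Foxo1, the cyclin Ccnd2, the synaptic vesicle protein Sv2b and the receptor Bmpr2. The exception was Ces1d, which ran from 74.7 to 1088 with a median of 222.2, and was highest in animal 7. Leaving out the most deviant array kept 12 of the 20 genes among the 20 most variable, and all 20 were among the most variable 5% in the MEHP arrays.

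The same 3 arrays stood apart in some other measures. Animals 52, 53 and 35 had the 3 lowest array medians of the corn oil set (123.2, 122.4 and 118.0). Their log2 ratios of 3′ over 5′ hexokinase control signal, a sign of shortened or incompletely copied RNA, were 0.81, 0.86 and 1.16, among the 4 highest of the 15. The same ratios of the other control genes were mixed. For actin they were 1.03, 1.28 and 1.19 (corn oil median 1.15), and for GAPDH -0.23, 0.08 and -0.06 (median -0.18). Among the MEHP arrays animals 39, 33 and 58 were among the 3 lowest in 19 of the 20 genes each. They had the 3 lowest array medians there (121.6, 117.2 and 125.2) and the 3 highest hexokinase ratios (1.39, 1.05 and 0.90). Their actin ratios were 1.36, 1.12 and 1.01 (MEHP median 1.14), and their GAPDH ratios 0.09, -0.14 and -0.10 (median -0.16). The integrity numbers of animals 52 and 53 were 9.4 and 9.7. A slope on the hexokinase ratio within times called 7 probe sets in the corn oil arrays, all lower, of 20212, and in the MEHP arrays 1963 of 20405, 307 higher and 1656 lower.

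**Figure D5:**
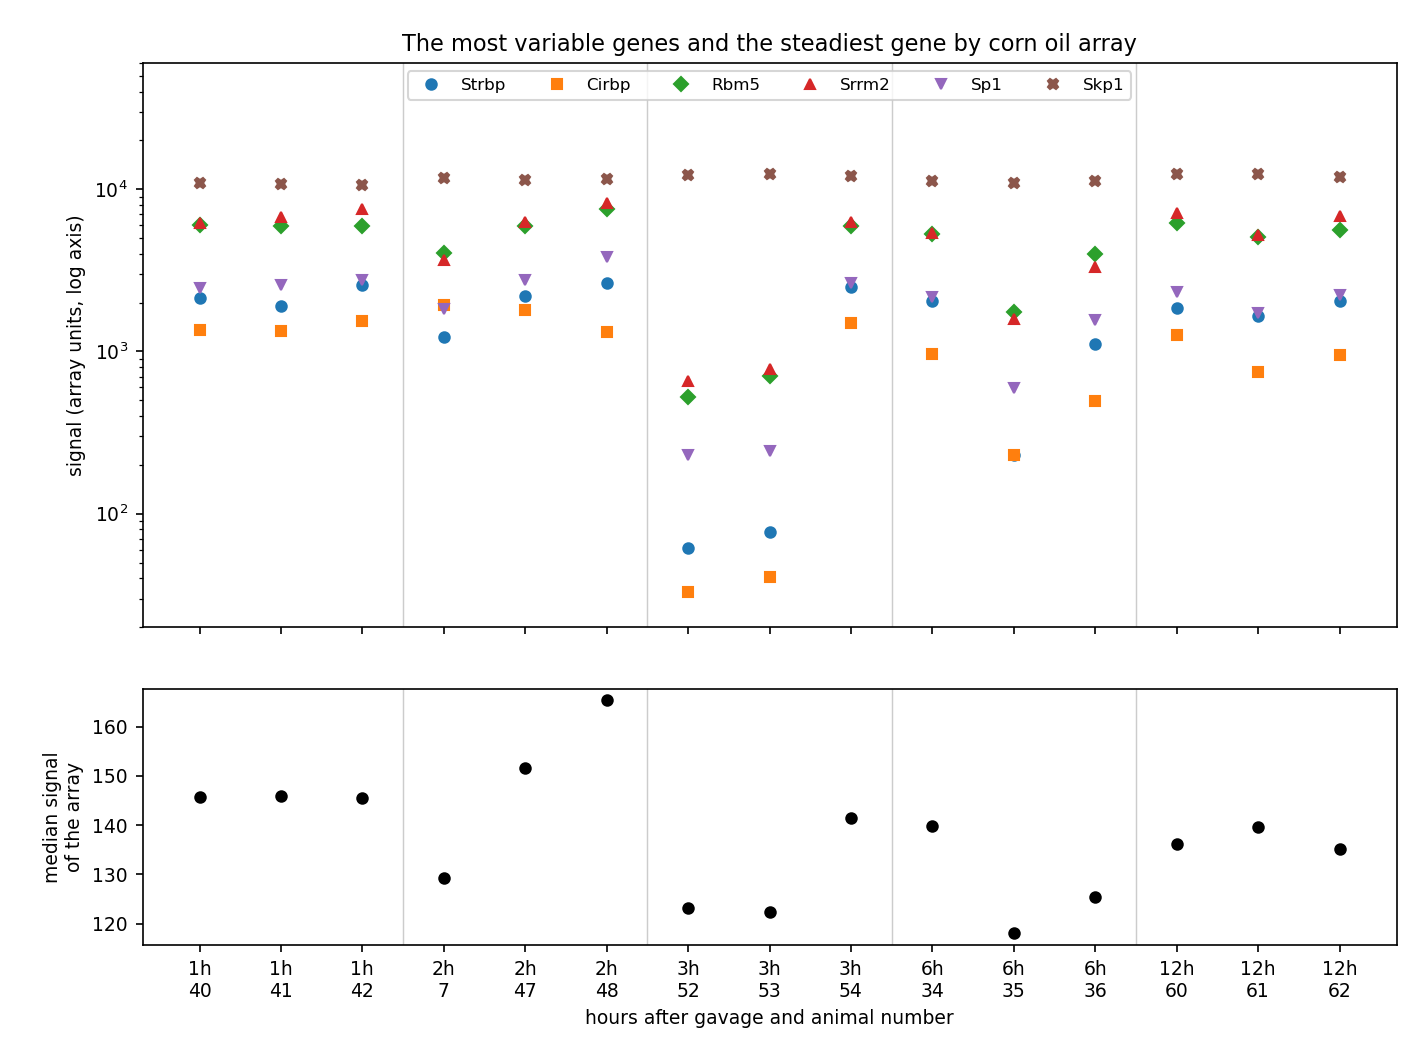
Signal (array units, log axis) of 5 of the most variable genes and of the steadiest gene, Skp1, in each corn oil array (top) and the median signal of the array (bottom), by time and animal number. Strbp, Cirbp, Rbm5, Srrm2 and Sp1 are lowest in animals 52, 53 and 35, whose array medians are 123.2, 122.4 and 118.0, while Skp1 stays between 10572 and 12474.

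Among the wider set of the 418 most variable genes, 5% of the 8365, the most deviant array was animal 48 in 247 (59.1%), animal 54 in 108 (25.8%) and animal 7 in 45 (10.8%). Over all 8365 genes the shares were 38.0%, 10.2% and 18.8%. All 3 animals at 1 h, which had the same gavage volume, were rarely the most deviant, in 1.82%, 1.67% and 2.22% of genes, as was animal 60 at 12 h, in 1.65%.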

How the data were processed

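Testis RNA of 15 corn oil and 15 MEHP rats was measured on 1-colour arrays, 1 per animal; groups, times, volumes and animal numbers came from the labels. Each deposited value is a linear intensity of a probe set, which the authors had scaled. The submitters' processing notes name GCOS 1.0. Method of summary, scaling target: not given in the sources used here. No array pair held identical values. Of 31099 probe sets, 57 controls were left out of tests; of the rest 20826 had 1 symbol, 436 several and 9780 none listed, and only the first were named. For ranks and lists a gene was taken at its brightest probe set; genes named from a test stand for the probe set that met the rule.

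All fits ran on log2(signal + 16), a scale on which folds of dim genes come out smaller. The filter left 20212 probe sets, 15136 with 1 symbol, standing for 10898 genes. limma 3.58.1 (R 4.3.3) with a trend was fitted to the corn oil arrays, 1 mean per time, or time plus volume; the same was done for MEHP arrays (20405 probe sets), and the treatment differences used all 30. Adjusted p-values are Benjamini-Hochberg over all probe sets tested, with the threshold at 0.05. Scripts were tested on simulated data. Eligible to be named were the 30 brightest genes, the 6 brightest of each list and its members at or below other organs. For each time up to 12 per direction were eligible among called genes without overlap (5 of smallest p where there were none). Also eligible were 10 of smallest p over the times, 10 volume slopes per direction, the 20 most and 10 least variable genes, and clock and stress genes. Not every eligible gene is described, and the choice among them followed no further rule. Sycp1, Sycp2, Amh, Acta2, Cmtm2a, Ccna1, Adam2, Adam3a, Meig1, Tex15, Hsd11b1, Cpd, Alg2, Pdcd4 and Ctsl were named after their values were seen. Members, lists and tests were chosen with earlier results of these data known. Alternatives were another pseudocount (64), no filter, quantile normalization, no trend, array covariates, all 30 arrays and each animal left out; the hexokinase covariate, the fit without 2 h animals and the treatment differences were added after seeing the data. The number of arrays limits the precision.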

Additional observations from a re-analysis of the deposited data

Results flagged for a closer look

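The difference between 2 h and the other times was compared between corn oil and MEHP arrays in a single model over all 30 arrays. In 90 of 21196 probe sets this difference of differences passed the adjusted threshold, 55 with the corn oil value above the MEHP value and 35 below it, and 3315 had an unadjusted p under 0.05. Alg2, a mannosyltransferase, had a 2 h difference of 0.56 in corn oil and -0.64 in MEHP arrays, which differ by 1.20 ± 0.18 on the log2 scale (adjusted p 0.0106, limma). Pdcd4, a translation inhibitor, had -0.35 and 0.38, the sialyltransferase St6gal1 had 0.83 and -0.21, and the lysosomal protease Ctsl had 0.51 and -0.62. The 2 h corn oil animals include the smallest gavage volume of the 15, 0.178 ml, against 0.21 to 0.24 ml in the 2 h MEHP animals. The comparison also carries any effect of MEHP at 2 h or at the other times. The parts of volume and of MEHP in this were not tested.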

How the results depend on the processing

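Counts of probe sets called. Over the 5 times (0 as reported) the count was 7 with all 30 arrays, 3731 with the spike covariate, 540 with the volume covariate and 1 with the hexokinase covariate, and ran from 0 to 4454 with 1 animal left out. For 1 h (0) it was 3707 with the spike and 228 with the volume covariate, and 0 to 3 with 1 animal left out. For 2 h (1841) it was 705 without the filter, 486 without the trend, 1 with the array median covariate and 0 with the spike, volume or hexokinase covariate, and 0 to 6490 with 1 animal left out. For 3 h (0) the spike, volume and hexokinase covariates gave 2223, 727 and 257, and leaving out 1 animal 0 to 1573. For 6 h (0) it was 71 with a pseudocount of 64, 5 with all 30 arrays, 296 with volume and 1 with hexokinase, and 0 to 2568 with 1 animal left out. For 12 h (0) it was 2 with the spike and 1 with the median covariate, and 0 to 2 with 1 animal left out. For 3 h against 6 h (0) the median, volume and hexokinase covariates gave 1, 1387 and 8, and leaving out 1 animal 0 to 283. For the mean of 1 and 6 h against the mean of 3 and 12 h, the times of low and high spikes (0, with 1429 at an unadjusted p under 0.05), the spike, median and volume covariates gave 1265, 9 and 50, and leaving out 1 animal 0 to 127. For the volume slope (4873) it was 8434 with all 30 arrays, 7595 without the time factor, 3 with the spike and 0 with the median covariate, 0 without the 2 h animals, and 1 to 5917 with 1 animal left out; the MEHP count of 4163 ran from 2013 to 4955. The median residual SD ran from 0.18 to 0.21 with 1 animal left out. Named volume slopes that changed sign, all with the median covariate, were Pafah1b1 (0.0052), Msi2 (0.00016), Gnas (0.16) and Sv2b (0.0341), and the 2 h difference of Trim14 did so with the volume covariate (0.0168). The cause of these changes was not tested.

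No paired analysis was possible because each animal carries its own number. With 3 animals per time, and volume partly following time, covariate fits lean on few animals. Genes near the level of other organs have no order, and their folds are shrunk.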
